A study of Rattus norvegicus with 8 samples.

Results

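The solute carriers are membrane proteins that move small molecules across the plasma membrane and the membranes of organelles. Here 119 genes of families 1 to 20 were followed in chondrocytes, out of 14217 genes measured on the same arrays. The members were the genes whose symbol in the array annotation matched these families, without Slc2a1, Slc2a3, Slc7a11, Slc11a2 and Slc16a3, which were left out of the match by the rule. Where a gene had several probe sets, as 31 of the 119 did, the one with the highest mean stood for it. By substrate, 38 members were carriers of ions, 4 of osmolytes, 31 of amino acids, 8 of sugars and 36 of other substrates such as lactate, peptides, transmitters and vitamins. The remaining 2, Slc4a1ap and Slc7a6os, matched by their symbols but are not carriers, since they are named after a carrier that their product binds or that lies beside them. Slc6a12 was not named by any probe set in the annotation used.

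The cells were primary chondrocytes of newborn Sprague Dawley rats (1 day of age, cartilage of the femoral condyles), grown in monolayer and kept without serum overnight. They were given either DMSO, the solvent, or U0126, an inhibitor of the kinases MEK1/2 that lie upstream of ERK, for 30 minutes, and then either vehicle (BSA) or TNFα at 30 ng/ml for 24 hours. This made 4 treatments, called DMSO, U0126, TNFα, and U0126 and TNFα together, each measured on 1 array in each of 2 independent experiments. The cartilage was not sorted, the number of rats per culture is not given in the sources used here, and the replicates are cultures and not animals. Every value is an intensity of 1 probe set on an array that was scaled to the same median as the others, and intensities of different genes cannot be ranked against each other.

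Carriers divide the work of feeding a cell and of keeping its volume and pH. Chondrocytes live in a matrix of fixed negative charge with a high and changing osmolarity, and they take up inorganic ions and organic osmolytes such as myo-inositol, taurine and betaine to hold their volume. They depend on glycolysis in a tissue without vessels, so that lactate is carried out of the cell together with protons, and proton and bicarbonate carriers regulate the pH inside. Phosphate carriers supply mineralising cartilage, and amino acid carriers supply the synthesis of matrix proteins. TNFα is an inflammatory cytokine found in arthritic joints, and one branch of its signalling runs through MEK and ERK.

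Of the 119 members, 31 had a mean intensity at or above the median of all genes and 88 a mean below it. No detection calls were used, so that a dim probe set is not known to lie above background. The cartilage collagen gene Col2a1 read between 24282 and 32103 on all arrays. Of the genes known from leukocytes, Ptprc read between 60.6 and 69.7, Cd68 between 216 and 641, Lyz2 between 518 and 1241 and Cd14 between 849 and 1659.6, and of the endothelial genes Pecam1 read between 72.7 and 80.4 and Tek between 149.9 and 600.0. Without detection calls, these levels do not show which of these genes were expressed. The experiments also differed from each other. Between the DMSO arrays, 9 of the 119 members (7.56%) differed by at least 0.54 on the log2 scale, with 4 higher and 5 lower in the second experiment, against 7.85% of all genes. The extremes were Slc5a3 at 1.95-fold and Slc10a7, a carrier of the bile acid family chosen after its values were seen, at 0.397-fold. Treatments were therefore compared within an experiment throughout.

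The first comparison asked which carriers responded to TNFα. With limma (treatment and experiment as terms, p adjusted by the Benjamini-Hochberg method over all 31042 probe sets, threshold 0.05), 10 of the 119 members passed, 6 higher and 4 lower, and 109 did not. Of all 14217 genes, 6.33% passed, 4.21% higher and 2.12% lower. The study's methods use a fold rule with no p, which asks that each experiment show a change of at least 0.54 on the log2 scale and that both point one way. By this rule 4 members were higher and 1 was lower, against 2.19% and 0.492% of all genes (2.68% together). These were Slc16a7, Slc20a1, Slc6a4 and Slc15a3, which were higher, and Slc5a3, which was lower. The carriers that rose were Slc16a7, a monocarboxylate transporter with high affinity for pyruvate and lactate, Slc20a1, a sodium-phosphate cotransporter, Slc6a4, the serotonin transporter, Slc15a3, a peptide and histidine carrier of lysosomes, Slc12a2, the sodium-potassium-chloride cotransporter, and Slc12a7, a potassium-chloride cotransporter. The carriers that fell were Slc5a3, the sodium-dependent myo-inositol transporter, Slc8a1, a sodium-calcium exchanger, Slc2a4, the insulin-responsive glucose transporter, and Slc9a2, a sodium-proton exchanger. The median log2 fold was -0.08 over the members and -0.01 over all genes. Members below the median level had a median log2 fold of -0.09, and all genes below it -0.07. Without a term for the experiment, 0 members passed in either direction, where the adjusted p of these 10 carriers ran from 0.113 for Slc15a3 to 0.626 for Slc8a1.

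**Figure D1:**
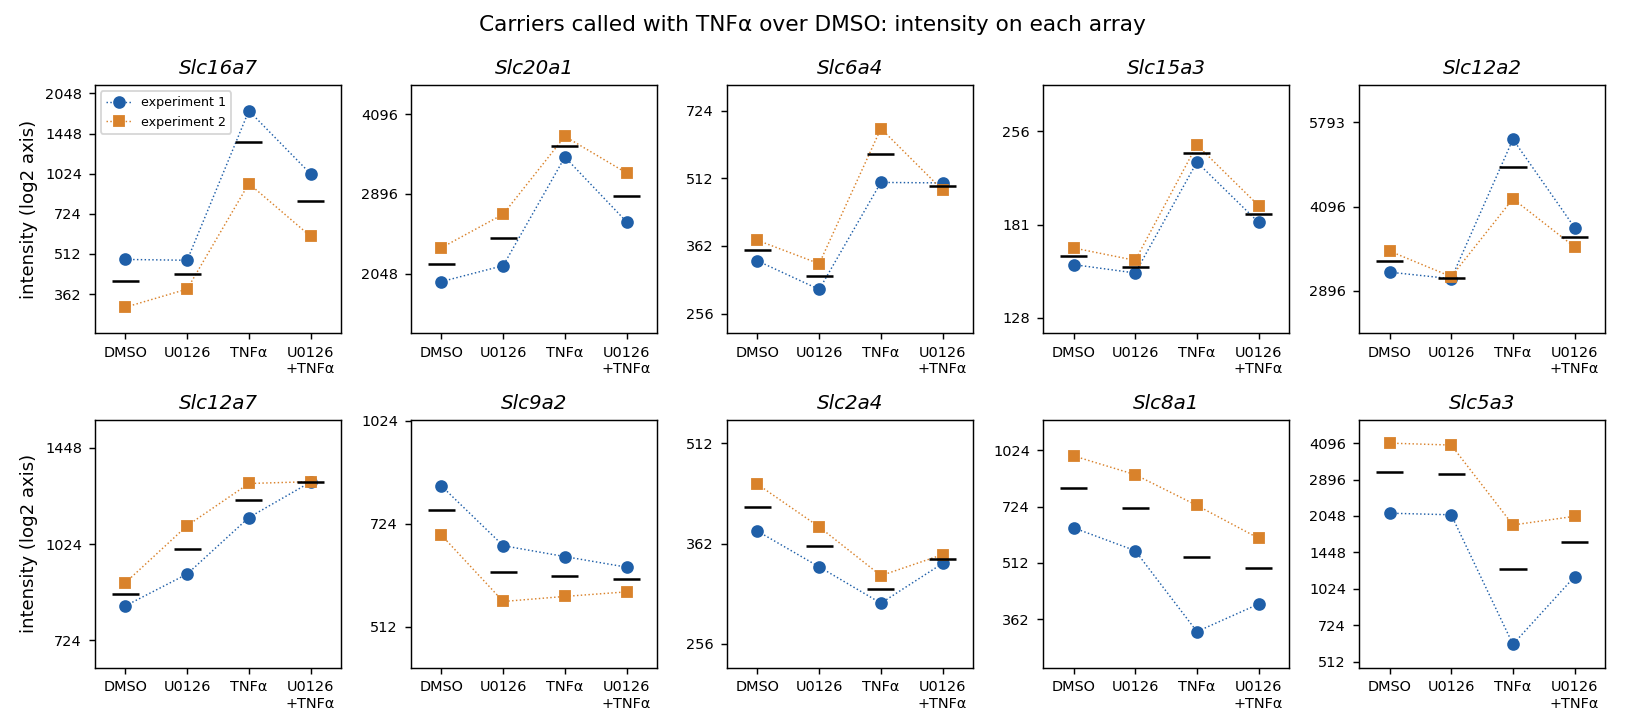
Intensity on each array (y axis, logarithmic to base 2, a different range in each panel) in the 4 treatments (x axis) for the 10 carriers past the threshold with TNFα over DMSO. Circles are experiment 1 and squares experiment 2, joined by dotted lines, and the bar is the mean of the 2 arrays; the TNFα arrays of Slc16a7 read 1763 and 941 against 488 and 323 with DMSO, and those of Slc5a3 read 604 and 1879 against 2102 and 4095.

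Slc16a7 rose the most of the 119 members. Its intensity was 488 and 323 on the DMSO arrays of experiments 1 and 2, 1763 and 941 with TNFα, 485 and 378 with U0126, and 1023 and 596 with both. The TNFα arrays lay above both DMSO arrays, and the arrays with both agents lay between DMSO and TNFα of their own experiment. The log2 fold with TNFα was 1.70 (SE 0.13, adjusted p = 0.00144 with limma), or 3.61-fold and 2.91-fold in the single experiments. The related Slc16a1, the widely expressed lactate carrier of the same family, read 3251 and 3978 with DMSO and 7039 and 5051 with TNFα. That was 2.17-fold in experiment 1 and 1.27-fold in experiment 2, and the log2 fold of 0.73 did not pass (adjusted p = 0.100 with limma). Of the 7 monocarboxylate carriers of family 16, Slc16a7 was the member that passed, and the family's median log2 fold was 0.12.

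Slc20a1 read 1980 and 2293 with DMSO, 3399 and 3718 with TNFα, 2122 and 2652 with U0126, and 2566 and 3171 with both. The groups DMSO and TNFα did not overlap, and the folds of 1.72 and 1.62 in the single experiments were close. The log2 fold was 0.74 (SE 0.07, adjusted p = 0.00356 with limma). Slc20a2, the other sodium-phosphate cotransporter of the family, read 680 and 707 with DMSO and 609 and 709 with TNFα (adjusted p = 0.638 with limma). The 4 phosphate carriers of family 17 that were measured, which are known from kidney and liver, did not pass either.

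Both cation-chloride cotransporters that passed are known for cell volume, and they carry chloride in opposite directions. Slc12a2, which brings sodium, potassium and chloride into the cell, read 3128 and 3412 with DMSO and 5399 and 4228 with TNFα. The log2 fold was 0.55 (SE 0.11, adjusted p = 0.0427 with limma), but the rise was 1.73-fold in experiment 1 and 1.24-fold in experiment 2. It no longer passed with quantile normalisation (adjusted p = 0.0611 with limma) or with an offset of 50 (adjusted p = 0.0561 with limma). Slc12a7, which lets potassium and chloride out, read 820 and 891 with DMSO and 1127 and 1274 with TNFα. Its folds of 1.37 and 1.43 stayed just under the limit of the fold rule in both experiments, and the log2 fold was 0.49 (SE 0.08, adjusted p = 0.0185 with limma). A second probe set of Slc12a7, with a mean intensity of 214, read 1.04-fold and 0.904-fold, and with the mean of both probe sets the call was lost (log2 fold 0.22, adjusted p = 0.128 with limma). Of the 8 members of family 12, 2 rose and 6 did not pass. Of the 4 kinases that are known to act on these cotransporters, Stk39 fell to 0.680-fold (adjusted p = 0.0304 with limma). Wnk2 fell to 0.746-fold (adjusted p = 0.0224 with limma), but it was dim, reading between 91.8 and 127 on all arrays. Wnk1 and Oxsr1 did not pass. Over all genes 6.33% passed, 2.12% as lower. None of 10 measured subunits and regulators of the sodium-potassium pump passed with limma, and 4 of them had an unadjusted p under 0.05, against 28% of all genes.

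The calcium and proton exchangers of the ion class that passed were lower. Slc8a1 read 635 and 990 with DMSO and 335 and 729 with TNFα, so that the groups overlap across experiments but not within one. The log2 fold was -0.68 (SE 0.13, adjusted p = 0.0344 with limma), from 0.527-fold and 0.737-fold. A second probe set of the gene, with a mean intensity of 242, read 0.884-fold and 0.862-fold and did not pass. Slc9a2 fell from 822 and 696 to 648 and 567, which was the smallest change that passed among the members, with a log2 fold of -0.32 (SE 0.07, adjusted p = 0.0431 with limma). The other 6 members of the sodium-proton families 9a and 9b did not pass. Slc4a7, a sodium-bicarbonate cotransporter that brings base into the cell, lay just outside the threshold. It read 1377 and 1200 with DMSO and 2203 and 1455 with TNFα, with a log2 fold of 0.48 and an adjusted p of 0.0502 with limma, and its second probe set read 1.37-fold and 1.39-fold. Slc4a2, a chloride-bicarbonate exchanger, read 3049 and 3013 with DMSO and 2652 and 2836 with TNFα and did not pass. None of 14 genes of the carbonic anhydrase family passed with limma, and 4 had an unadjusted p under 0.05, against 28% of all genes.

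Slc5a3 fell the most. It read 2102 and 4095 on the DMSO arrays and 604 and 1879 with TNFα, that is 0.287-fold and 0.459-fold. Within each experiment the fall was larger than the 1.95-fold distance between the DMSO arrays. The log2 fold was -1.46 (SE 0.18, adjusted p = 0.00828 with limma). A second probe set, with a mean intensity of 77.3, read 0.841-fold and 1.00-fold, and the mean of both probe sets gave a log2 fold of -0.79. Slc6a6, the taurine transporter, did not move one way. It read 5302 and 6467 with DMSO and 3919 and 7946 with TNFα, 0.739-fold in experiment 1 and 1.23-fold in experiment 2. Slc2a13, a proton-coupled myo-inositol carrier, read 716 and 827 with DMSO and 629 and 680 with TNFα (adjusted p = 0.115 with limma), while its dimmer probe set, with a mean of 378, was lower with an adjusted p of 0.0454. The osmolyte class thus held 1 carrier that fell and 3 that did not pass. Of 7 measured genes of the response to hypertonic medium, among them Nfat5, the factor that drives it, none passed with limma. An unadjusted p under 0.05 was found for 2 of them, against 28% of all genes. Aqp1, a water channel on that list, read 8945 and 9968 with DMSO and 3920 and 7479 with TNFα (adjusted p = 0.0523 with limma).

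**Figure D2:**
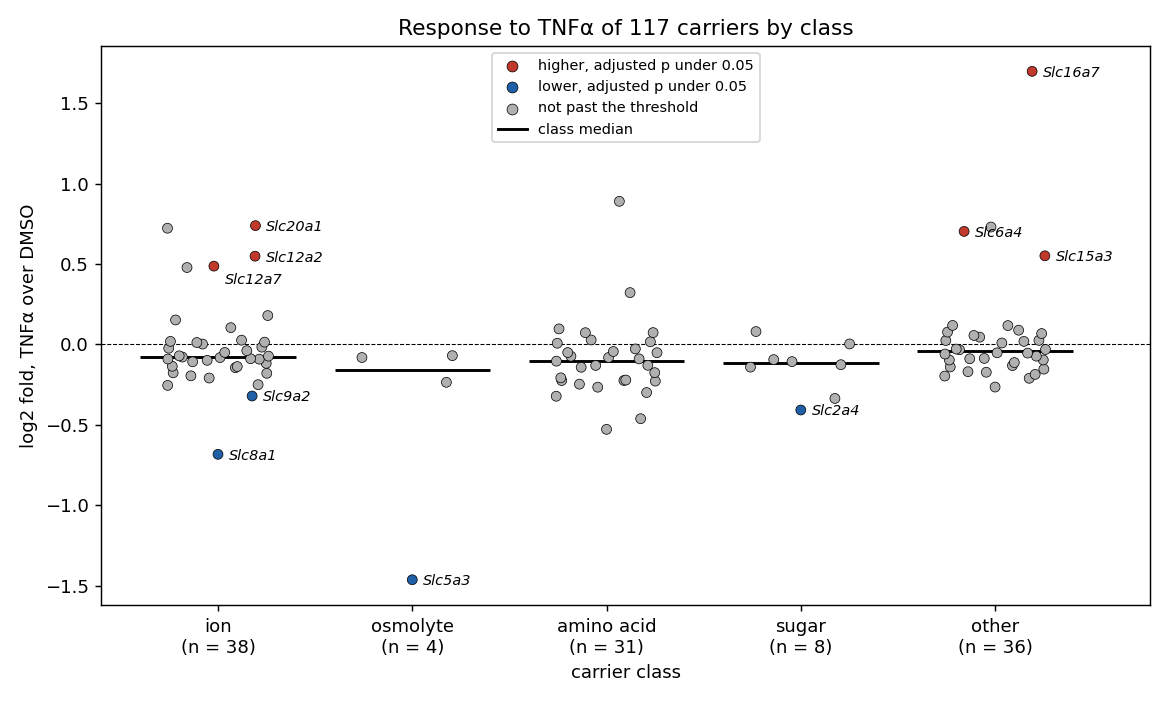
Log2 fold of TNFα over DMSO (y axis, limma) for the 117 carriers, grouped by substrate class (x axis). Red points passed as higher and blue as lower, grey points did not pass, and the bar is the class median; 5 ion carriers, 1 osmolyte carrier, 1 sugar carrier and 3 other carriers passed, and no amino acid carrier did.

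None of the 31 amino acid carriers passed the threshold with TNFα. With unadjusted p under 0.05 there were 12, of which 10 were lower and 2 higher, and the class median was a log2 fold of -0.10. Over all genes, 28% had an unadjusted p under 0.05. Slc1a5, which carries glutamine and other neutral amino acids, read 2281 and 1983 with DMSO and 2743 and 2578 with TNFα, a log2 fold of 0.32 (adjusted p = 0.0733 with limma). Slc3a2, the heavy chain that pairs with several light chains of family 7, read 8099 and 7502 with DMSO and 7076 and 7056 with TNFα. Its light chain Slc7a5, for large neutral amino acids, read 1118 and 1058 with DMSO and 1060 and 1127 with TNFα, and the groups overlap. The arginine carrier Slc7a1 read 3714 and 2436 with DMSO and 2740 and 2409 with TNFα. Slc7a2, the arginine carrier known from activated macrophages, read 224 and 167 with DMSO and 238 and 174 with TNFα. Slc7a3, Slc6a15 and Slc1a1 were chosen after their values were seen. Slc7a3, another arginine carrier, read 1463 and 916 with DMSO and 967 and 732 with TNFα (adjusted p = 0.0569 with limma). Slc6a15, for branched neutral amino acids, went from 1440 and 869 to 832 and 724 (adjusted p = 0.12 with limma). Slc1a1, a glutamate carrier, went from 351 and 302 to 997 and 365, a rise of 2.84-fold in experiment 1 and 1.21-fold in experiment 2 (adjusted p = 0.103 with limma).

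Of the 8 sugar carriers, 1 fell with TNFα and 7 did not pass. Slc2a4 read 378 and 444 with DMSO and 295 and 324 with TNFα, and the groups did not overlap. The log2 fold was -0.41 (SE 0.07, adjusted p = 0.0252 with limma), and a dimmer second probe set read 0.829-fold and 0.675-fold. Slc2a5, the fructose transporter, read 594 and 640 with DMSO and 507 and 471 with TNFα (adjusted p = 0.0672 with limma). Slc2a8, a glucose carrier of inner membranes, and Slc2a6 changed in opposite directions in the experiments. The class median was a log2 fold of -0.12. The glucose transporters Slc2a1 and Slc2a3 were not members.

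Among the carriers of other substrates, Slc6a4 read 335 and 373 with DMSO, 501 and 661 with TNFα, 290 and 331 with U0126, and 500 and 482 with both. All arrays with TNFα lay above all arrays without it. The log2 fold was 0.70 (SE 0.10, adjusted p = 0.0154 with limma). Slc15a3 read 156 and 166 with DMSO, 228 and 243 with TNFα, 151 and 159 with U0126, and 183 and 194 with both, so that the arrays with TNFα alone lay above those with both agents, and these above all arrays without TNFα. Its folds of 1.46 and 1.47 were nearly the same in both experiments, and the log2 fold was 0.55 (SE 0.06, adjusted p = 0.00502 with limma). Slc15a3 is also known from macrophages. Of 9 macrophage and leukocyte markers 1 was called higher with TNFα, Cd68, which read 216 and 434 with DMSO and 472 and 641 with TNFα (adjusted p = 0.0228 with limma). With both agents Cd68 read 245 and 493. Cd14 went from 962 and 1110.4 with DMSO to 1659.6 and 1142 with TNFα and read 965 and 862 with both agents (adjusted p = 0.153 with limma for TNFα). Adgre1, which read 30.0 and 201 with DMSO and 35.3 and 340.4 with TNFα, read 37.1 and 143 with both agents (adjusted p = 0.311 with limma for TNFα). The other 6 markers, Ptprc, Csf1r, Itgam, Cd163, Lyz2 and Tyrobp, had log2 folds between -0.22 and -0.03 with TNFα. The 9 markers summed to 2597 and 3915 with DMSO, 3404 and 4210 with TNFα, 2608 and 3326 with U0126, and 2552 and 3363 with both agents, so that within each experiment the sum was highest with TNFα alone, as was Slc15a3. The brightest markers, such as Cd14, weigh most in this sum, and 6 of the 9 had a negative log2 fold with TNFα. The part of other cells in the values of Slc15a3 was not tested, and in cultured cells a change in the number of cells of a type cannot be told apart from a change in RNA per cell. Of 7 chondrocyte markers, 4 were lower with TNFα, namely Acan, Matn1, Hapln1 and Col9a1. None of the 4 endothelial, 5 erythroid, 2 hypertrophic, 4 skeletal muscle and 4 neuronal genes measured passed with limma, where 2, 1, 0, 0 and 2 had an unadjusted p under 0.05. Over all genes 28% had such a p. The creatine carrier Slc6a8, read as 2828 and 3401 with DMSO and 2833 and 3263 with TNFα, and the vesicular carrier Slc18b1, read as 3413 and 3130 and then 3371 and 3280, did not pass.

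The carriers differed in how well the experiments matched. Across the members, 85 of 119 moved in the same direction in both experiments, against 70.2% of all genes. Slc16a7, Slc20a1 and Slc15a3 passed with any 1 of the 8 arrays left out. Slc5a3 passed in 7 of these 8 fits and was lost without the DMSO array of experiment 1 (adjusted p = 0.0639), and Slc6a4 passed in 6 and was lost without either DMSO array (adjusted p = 0.0736 and 0.0831). Slc12a7 passed in 4, Slc2a4 in 2, Slc8a1 and Slc12a2 in 1 each and Slc9a2 in 0. With only the DMSO and TNFα arrays in the fit, Slc16a7, Slc20a1, Slc6a4 and Slc5a3 passed and the other 6 did not. Each of these p-values rests on 2 experiments, and Slc16a1, Slc1a1 and Slc13a3, with folds that differed widely between them, did not pass. Slc13a3, a sodium-dicarboxylate cotransporter chosen after its values were seen, went from 126.1 and 134.4 to 150 and 307, which was 1.19-fold and 2.29-fold (adjusted p = 0.117 with limma).

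**Figure D3:**
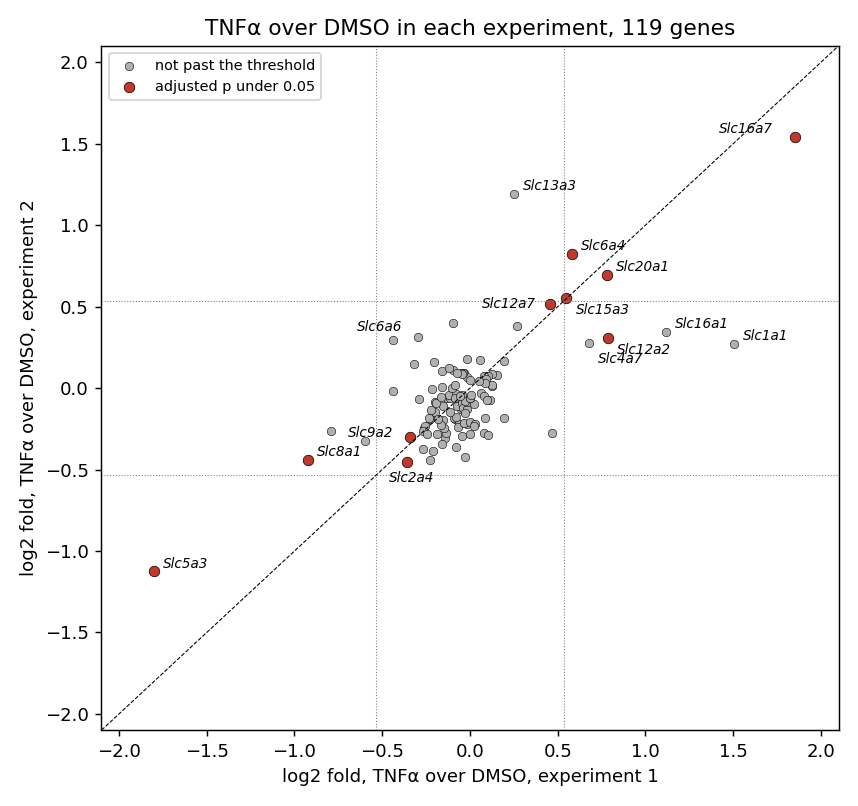
Log2 fold of TNFα over DMSO in experiment 1 (x axis) and in experiment 2 (y axis) for the 119 genes, 1 point each. Red points passed with limma, dotted lines mark the limit of the fold rule, 0.54 on the log2 scale, and the dashed line equal folds; Slc16a7 and Slc5a3 lie far along the diagonal, and Slc1a1, at 2.84-fold and 1.21-fold, lies far from it.

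The next comparison asked what U0126 did without TNFα. No member passed in either direction with limma, against 0.0914% of all genes, and none passed the fold rule, against 0.415%. With unadjusted p under 0.05 there were 23 members, and 13.5% of all genes. The lowest adjusted p belonged to Slc6a8, which read 3425 and 4202 with U0126 against 2828 and 3401 with DMSO, a log2 fold of 0.29 (adjusted p = 0.228 with limma). Slc9a2 was next, at 672 and 557 against 822 and 696 (adjusted p = 0.23 with limma). The U0126 arrays of Slc5a3, at 2071 and 4021, and of Slc16a7, at 485 and 378, were close to their DMSO arrays.

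In the presence of U0126, TNFα was compared with U0126 alone to ask which carriers responded. Slc16a7 and Slc6a4 passed as higher, 2 of 119 members, and none passed as lower. Of all genes 1.68% passed, 1.17% higher and 0.513% lower. With unadjusted p under 0.05 there were 12 members, and 13.8% of all genes. Slc16a7 had a log2 fold of 0.87 (SE 0.13, adjusted p = 0.029 with limma), or 2.11-fold and 1.58-fold. Slc6a4 had a log2 fold of 0.67 (SE 0.10, adjusted p = 0.0389 with limma), or 1.73-fold and 1.46-fold. These calls were kept in 2 of the 8 fits with 1 array left out, for each gene. By the fold rule, 2 members were higher, again Slc16a7 and Slc6a4, and 1 was lower, Slc5a3, against 1.21% and 0.366% of all genes (1.58% together). Slc5a3 read 1150 and 2041 with both agents against 2071 and 4021 with U0126, or 0.555-fold and 0.508-fold, with a log2 fold of -0.91 and an adjusted p of 0.0791. The other carriers that passed with TNFα alone did not pass here. Slc2a4, at 338 and 349 with both agents against 334 and 384, and Slc9a2, at 625 and 575 against 672 and 557, showed no common direction.

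The size of the response with U0126 can be set beside that without it, as a share of the log2 fold. The carriers shown were those that passed without U0126, and that response is also the divisor. This choice by itself favours low shares. The share was 94.7% for Slc6a4, 76.2% for Slc8a1, 72.5% for Slc12a7 and 62.5% for Slc5a3. It was 51.2% for Slc15a3, 51.1% for Slc16a7, 43.6% for Slc12a2 and 36.0% for Slc20a1, and 14.8% for Slc2a4 and 9.0% for Slc9a2. These are ratios of estimates without an error of their own, and in the single experiments the share of Slc6a4 was 135.8% and 65.9%, that of Slc5a3 47.1% and 87.1%, and that of Slc20a1 35.1% and 37.0%.

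**Figure D4:**
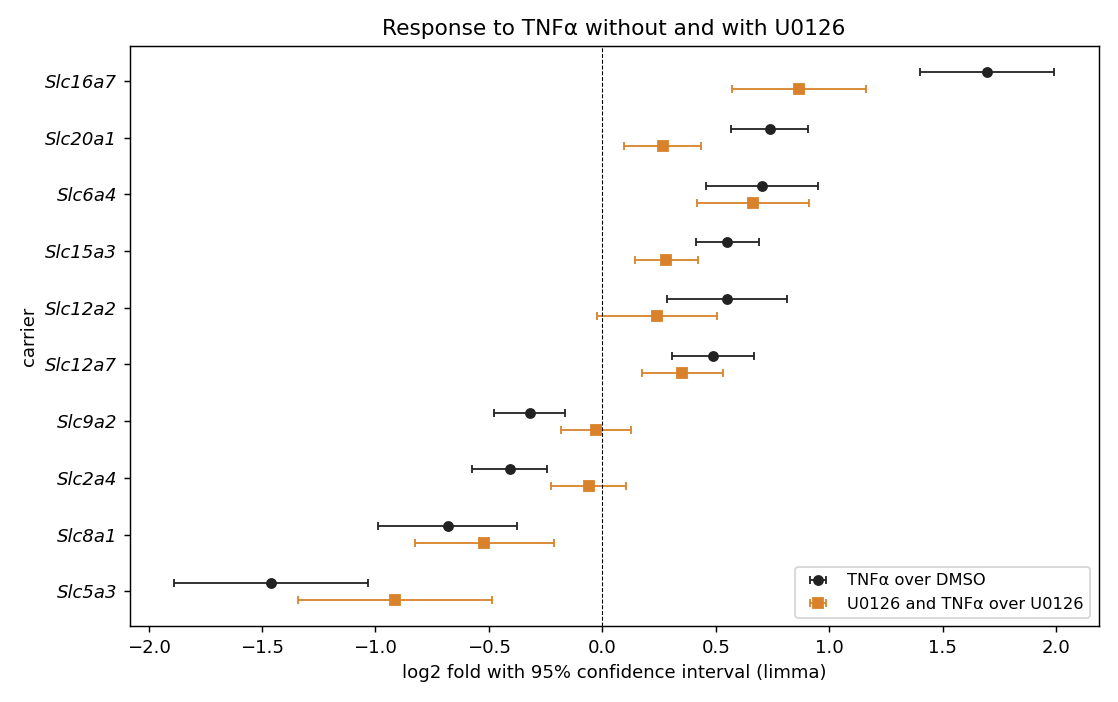
Log2 fold with TNFα (x axis) without U0126 (black circles, TNFα over DMSO) and with it (orange squares, U0126 and TNFα over U0126) for the 10 carriers past the threshold without U0126 (y axis). Bars are 95% confidence intervals from limma. The intervals without and with U0126 do not overlap for Slc16a7, Slc20a1 and Slc2a4. Those of Slc6a4, 0.46 to 0.95 and 0.42 to 0.91, overlap almost wholly.

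The difference itself was tested as an interaction of TNFα and U0126. No member passed with limma, and 0 of all 14217 genes did, so that no response of a single carrier was shown to differ. With unadjusted p under 0.05 there were 16 members, 11 with a positive and 5 with a negative difference, and 8.46% of all genes. The log2 difference of the responses was -0.83 for Slc16a7 (95% confidence interval -1.25 to -0.41, unadjusted p = 0.00231, adjusted p = 0.499 with limma) and -0.47 for Slc20a1 (-0.71 to -0.23, unadjusted p = 0.00235, adjusted p = 0.499 with limma). For Slc15a3 it was -0.27 (-0.46 to -0.07) and for Slc4a7, whose intensity with both agents was 1.03-fold and 1.01-fold that with U0126, -0.45 (-0.80 to -0.10). For every carrier that passed as lower with TNFα the difference was positive. It was 0.35 for Slc2a4 (0.11 to 0.58, unadjusted p = 0.010, adjusted p = 0.508 with limma). For Slc9a2 it was 0.29 (0.07 to 0.51, unadjusted p = 0.0166, adjusted p = 0.525 with limma). For Slc8a1 it was 0.16, with an interval that included 0 (-0.27 to 0.59). U0126 alone read 0.873-fold against DMSO for Slc2a4, 0.809-fold for Slc9a2 and 1.24-fold for Slc4a7. Slc4a7 with both agents read 0.811-fold and 1.03-fold against TNFα alone. For Slc5a3 the interval ran from -0.06 to 1.15 and for Slc6a4 it included 0 as well. By the fold rule, 1 member, Slc16a7, was lower in this difference and none was higher, against 0.387% of all genes lower and 0.415% in either direction.

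When U0126 was added to TNFα and the arrays were set against TNFα alone, no member passed with limma, against 0.366% of all genes. The study's methods do not describe this comparison. By the fold rule 1 member, Slc16a7, was lower, against 0.71% of all genes lower and 1.01% in either direction. With unadjusted p under 0.05 there were 23 members, and 13.7% of all genes. Slc16a7 read 1023 and 596 with both agents and 1763 and 941 with TNFα, or 0.580-fold and 0.634-fold (log2 fold -0.72, adjusted p = 0.0881 with limma). Slc2a5, the fructose transporter, had the lowest adjusted p, 0.0733. It read 706 and 704 with both agents and 507 and 471 with TNFα, or 1.39-fold and 1.49-fold, and all its TNFα arrays lay below all others. Slc15a3 was at 0.799-fold and 0.798-fold (adjusted p = 0.0942 with limma).

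In the same comparison, 9 of the 31 amino acid carriers had an unadjusted p under 0.05, and in all 9 the arrays with both agents were the higher; over all genes 13.7% had such a p. None passed after adjustment. Slc3a2 went from 7076 and 7056 with TNFα to 8519 and 9478 with both agents (log2 fold 0.35, adjusted p = 0.183 with limma). Slc7a1 went from 2740 and 2409 to 3305 and 3321, Slc7a3 from 967 and 732 to 1310 and 1101, and Slc6a15 from 832 and 724 to 1123 and 1194. Slc1a4, which carries alanine, serine and cysteine and was chosen after its values were seen, went from 1504 and 1229 to 1712 and 1768. In experiment 2, U0126 over DMSO was also above 1 for the carriers just named. It was 1.29-fold for Slc3a2, 1.28-fold for Slc7a1, 1.39-fold for Slc7a3, 1.67-fold for Slc6a15 and 1.37-fold for Slc1a4. Slc7a5, which is not among the 9, was at 1.61-fold. The rest of the 9, named to complete the count, did not move one way. Slc6a9 was at 1.08-fold, Slc7a7 at 1.04-fold, Slc6a7 at 0.858-fold and Slc6a5 at 0.894-fold. In experiment 1 the same folds lay between 0.885 and 1.10. The median over the class was a log2 fold of 0.04, against 0.00 over all genes.

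**Figure D5:**
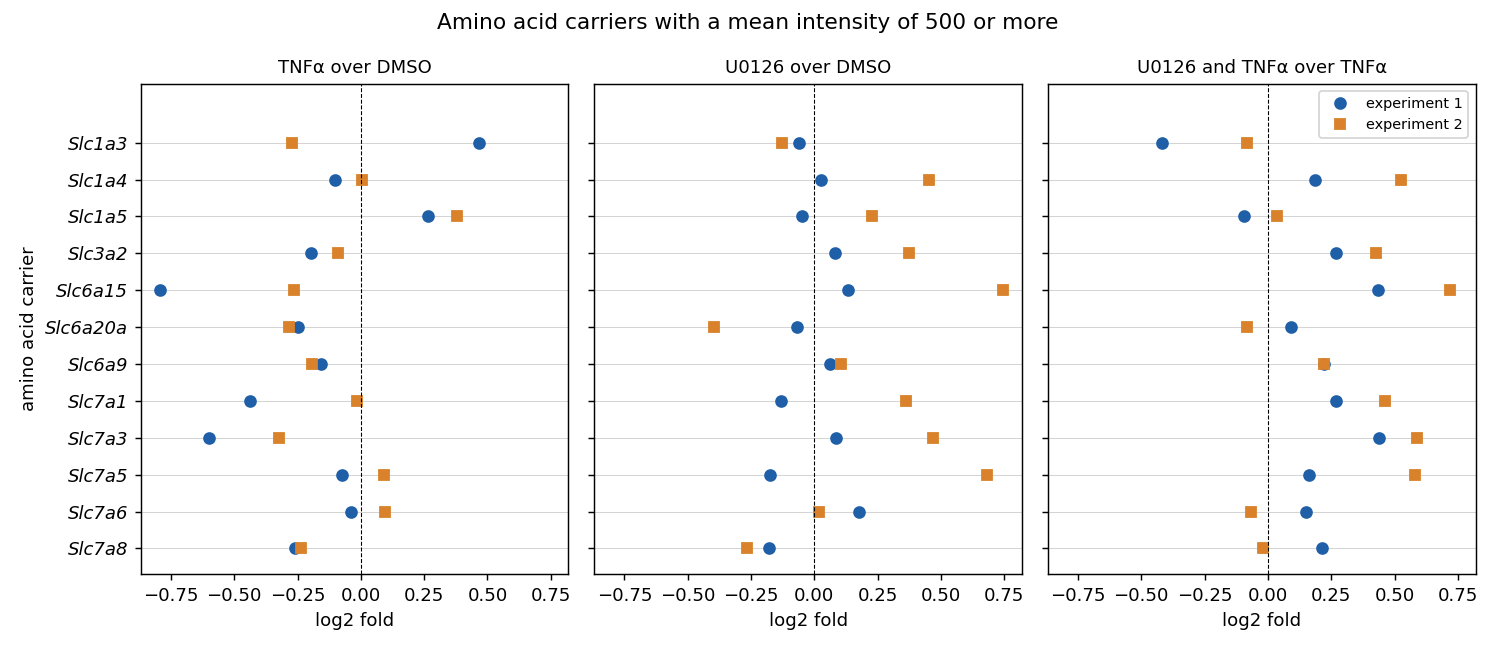
Log2 fold in each experiment (x axis; circles experiment 1, squares experiment 2) for the 12 amino acid carriers with a mean intensity of 500 or more (y axis), in 3 comparisons. None passed the threshold in any of them; Slc3a2, Slc7a1, Slc7a3, Slc6a15 and Slc1a4 lie to the right in both experiments with U0126 and TNFα over TNFα, and with U0126 over DMSO mainly in experiment 2.

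Several genes of these carriers are known targets of the response to a lack of amino acids, which runs through the factor Atf4. Of 15 measured genes of that response, 1 passed with TNFα, Cebpb, which is also known as an inflammatory factor and rose 2.00-fold (adjusted p = 0.0438 with limma). None passed with U0126 and TNFα over TNFα, where 7 had an unadjusted p under 0.05 and the median log2 fold was 0.37. Over all genes 13.7% had such a p. The 15 genes summed to 61624 and 51788 with TNFα and to 64525 and 69988 with both agents. Their sum was 66484 and 48798 with DMSO and 64579 and 66499 with U0126 alone. U0126 alone was thus above DMSO in experiment 2 and not in experiment 1. Atf4 itself read 10739 and 8806 with TNFα and 12227 and 11991 with both agents (adjusted p = 0.353 with limma). Asns, asparagine synthetase, read 3304 and 2742 with TNFα and 3770 and 4205 with both. Psat1, an enzyme of serine synthesis, read 4285 and 4882 and then 6133 and 6975, one of the largest rises of the 15 genes. Vldlr, Shmt2 and Cebpb lay slightly lower with both agents, at 0.922-fold, 0.968-fold and 0.976-fold.

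The carriers of families 21 and above were counted in the same way. Of those 184 genes, 6 were higher and 6 lower with TNFα, with a median log2 fold of -0.05. The 10 of 119 genes of families 1 to 20, 8.4%, were near the 6.52% of the later families and the 6.33% of all genes.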

How the data were processed

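Total RNA was hybridised to 8 Affymetrix RAT230_2.0 arrays, 1 for each of 4 treatments in each of 2 experiments. The deposited values are a linear summary intensity for each probe set, and the submitters' notes on processing name RMA with no version. The authors describe setting values below 0.01 to 0.01 and dividing by the array median and by DMSO. The floor changed 0 values, and the divisions had not been applied to the deposited intensities, whose array medians lie between 365.1 and 378.2. The log2 intensities were therefore centred on each array's median. Arrays have no read depth, and their number limits the precision. The 57 controls among the 31099 probe sets were dropped. In the platform annotation of 2016, 20826 of the rest had 1 symbol, 436 had several and 9780 had none. The Entrez identifiers of all 119 members were found in the RefSeq table, used for names only.

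Groups came from the sample titles. Arrays of the same replicate number were treated as 1 experiment, as the methods compare arrays within one. Deviations from the treatment means correlated at 0.728 to 0.829 between arrays of the same number. limma 3.58.1 (R 4.3.3) was fitted to all 8 arrays with treatment and experiment as terms and empirical Bayes moderation (3 residual and 3.913 prior degrees of freedom, median SD 0.07521), for 5 comparisons. The rates of false and of missed calls on these arrays were not tested. The p-values measure how far the treatment differences varied between 2 experiments, after the shift between the experiments was taken out. That spread is pooled over the 4 treatments and moderated by the spread of the other probe sets.

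The members, the substrate classes and the lists of other genes were chosen with earlier results of these data known. Genes named were those past either threshold, the 3 highest by mean in each class and a fixed set, and others are marked. Alternatives were the fit without the experiment, with only the arrays compared, without centring, with quantile normalisation, with an offset of 50, with the brightest 60% of probe sets, with the mean over probe sets, with a trended robust prior, with other fold limits and with each array left out. The PCR, immunoblot, gel shift and reporter data were not analysed here.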

Additional observations from a re-analysis of the deposited data

How the results depend on the processing

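The counts of carriers past a threshold depended most on the term for the experiment. With no replicate block, 0 were higher and 0 lower with TNFα, and 0 were higher with both agents over U0126. With only the arrays compared in the fit, 3 were higher and 1 lower with TNFα, 2 were lower with both agents over U0126, and 1 was higher and 1 lower with both agents over TNFα. An offset of 50 left 0 higher with both agents over U0126, and by the fold rule 2 higher with TNFα and 1 higher with both agents over U0126. Quantile normalisation left 1 higher by the fold rule with both agents over U0126, and the mean over probe sets left 0 lower there. With a limit of 1.3-fold, 2 were lower with TNFα, 2 lower with both agents over U0126, 3 higher with both agents over TNFα and 2 lower in the difference of the responses. With a limit of 2-fold, 1 was higher with TNFα, and 0 were higher or lower with both agents over U0126, 0 lower with both agents over TNFα and 0 lower in the difference. Without single arrays, 3 to 8 were higher and 0 to 3 lower with TNFα, 0 to 2 higher and 0 to 2 lower with both agents over U0126, 0 to 1 higher and 0 to 2 lower with both agents over TNFα, and 0 to 0 in U0126 over DMSO and in the difference. The cause of these shifts was not tested. No value of a carrier past the threshold changed sign under any alternative run.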
